A study of Homo sapiens with 9 samples.

Results

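The metallothioneins are a family of small, cysteine-rich, metal-binding proteins, and 9 of their genes were examined here: MT1A, MT1E, MT1F, MT1G, MT1H, MT1M, MT1X, MT2A and MT3. They were taken by gene name from the deposited count table, which holds 58735 genes, and each name matched a single gene. Only MT2A, MT1F and MT1X (3 of 9) had enough reads to be compared between groups; the other 6 had between 0 and 5 reads in all 9 libraries together. Metallothioneins hold zinc and copper through the thiols of their cysteines, which buffers the free metal in the cell and also lets them react with oxidants. Their genes are switched on by the zinc-sensing transcription factor MTF1, which binds metal response elements near the transcription start, and are also induced by glucocorticoids and by oxidative stress. MT1 and MT2 proteins are made in many tissues, whereas MT3 is best known from the brain.

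The samples were cultures of OVCAR3, an established human ovarian carcinoma cell line, 72 h in culture, and the purpose was to learn what GPX3 does in them. The GPX3 protein, glutathione peroxidase 3, contains selenocysteine, is secreted and removes peroxides. The 3 groups held 3 libraries each: a scramble short hairpin RNA, labelled as wild type for GPX3, and 2 hairpins against GPX3 numbered 76 and 78, called sh76 and sh78 here. All groups thus carried a hairpin, came from 1 cell line and grew in medium with serum and bovine insulin. The labels do not say whether replicates were separate transductions or cultures, so p-values measure the spread between these libraries, which may be technical. Poly-A RNA was sequenced from whole cultures, so fewer cells with a transcript and less of it per cell cannot be told apart.

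Libraries held 14652965 to 21327562 counts, so a gene at 1 CPM (the count relative to the TMM-scaled library size) had 14.5 to 21.0 counts. GPX3 itself had 173, 109 and 117 CPM in scramble replicates 1 to 3, 56.8, 55.2 and 55.5 CPM with sh76, and 35.3, 28.4 and 28.3 CPM with sh78. All 8 markers fixed for ovarian carcinoma epithelium (PAX8, WFDC2, MUC16, MSLN, EPCAM, KRT8, KRT18 and CDH1) were well covered. Their summed level ran from 10900 to 11500 CPM with scramble, 9640 to 10200 CPM with sh76 and 8770 to 9100 CPM with sh78. KRT8 and KRT18 made up most of that sum, with means of 5560 and 2180 CPM with scramble and 3880 and 1580 CPM with sh78. The sh78 means of MSLN, EPCAM and CDH1 (161, 252 and 208 CPM) also lay below those of scramble (167, 317 and 244 CPM). Those of PAX8, WFDC2 and MUC16 (960, 284 and 1620 CPM) lay above scramble (902, 255 and 1550 CPM). With sh76, PAX8 had a mean of 744 CPM and was called lower than scramble (edgeR adjusted p 0.0196). Of 5 fibroblast markers 2 passed the count filter, led by COL1A1, with a summed level of 27.5 to 52.6 CPM over all libraries. The highest sum was in sh76 replicate 2, which had 6.88 CPM of COL1A2 against 1.09 to 2.75 CPM in the other 8 libraries, and 11 counts of DCN and 3 of LUM. The 4 leukocyte markers summed to at most 3.05 CPM and the 3 endothelial markers to at most 10.8 CPM. The part of these differences in the results below was not tested.

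Because the family consists of near-identical copies, the coding sequences of the 3 expressed members are shown with that of MT1H, a member with no reads. They are GENCODE 29 reference sequences (GRCh38, plus strand, introns removed, stop codon left out), and capitals mark the bases that differ from MT2A at the same position.
MT2A, chr16:56608656-56609351: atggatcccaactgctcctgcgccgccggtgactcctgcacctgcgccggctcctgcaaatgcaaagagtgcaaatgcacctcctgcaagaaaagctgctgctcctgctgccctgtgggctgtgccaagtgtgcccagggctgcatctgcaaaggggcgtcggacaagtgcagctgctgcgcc
MT1F, chr16:56658059-56659161: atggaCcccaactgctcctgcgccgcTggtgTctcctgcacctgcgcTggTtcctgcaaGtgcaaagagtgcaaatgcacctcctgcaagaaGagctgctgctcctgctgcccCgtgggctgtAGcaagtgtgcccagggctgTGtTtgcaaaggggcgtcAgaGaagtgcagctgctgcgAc
MT1X, chr16:56682541-56684046: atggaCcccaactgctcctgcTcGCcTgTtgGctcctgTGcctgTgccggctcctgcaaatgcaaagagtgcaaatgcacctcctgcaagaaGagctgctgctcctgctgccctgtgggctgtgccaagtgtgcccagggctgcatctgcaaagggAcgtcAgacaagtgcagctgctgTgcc
MT1H, chr16:56669885-56670986: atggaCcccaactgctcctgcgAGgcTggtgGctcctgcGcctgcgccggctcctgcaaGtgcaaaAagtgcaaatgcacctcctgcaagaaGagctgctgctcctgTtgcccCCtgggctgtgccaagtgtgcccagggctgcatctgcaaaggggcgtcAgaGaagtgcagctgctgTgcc
Each of the 4 has 61 codons, 20 of which are TGC or TGT, the codons of cysteine. MT1F differs from MT2A at 16 of 183 bases, MT1X at 14 and MT1H at 15. Among MT2A and the 7 MT1 genes, aligned coding sequences were 88.5% to 94.5% identical over 28 pairs. MT3, with 68 codons, was 73.0% to 76.0% identical to the others. The longest stretch that all 9 members share is 23 bases, from base 70 to base 92 of the MT2A coding sequence: tgcaaatgcacctcctgcaagaa.

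How far reads could be shared between copies depends on their length, which was not given in the sources used here, so transcripts were cut into words of 50, 100 and 150 bases and searched for in all other GENCODE 29 transcripts. Of the words of 50 bases in the coding transcripts of MT2A, 4.2% also occurred in another gene, against 3.3% for MT1F and 43.6% for MT1X. At 100 bases none of the words of MT2A or MT1F was shared, and 30.8% of those of MT1X still were. All of those of MT1X lay in AC026461.1, a separately annotated gene that overlaps MT1X on the same strand and covers 321 of its 1773 exonic bases (18.1%). AC026461.1 had 0 counts in all 9 libraries. Reads from that stretch fit both genes, and none was counted for AC026461.1. Whether they were counted for MT1X or left out is not given in the sources used here. If they were left out, the MT1X counts are too low, so the MT1X level is the least certain of the 3. Among the members without reads, MT1G and MT1H shared 16.5% and 15.8% of their words of 50 bases with other genes. The rest of each was not found in transcripts of other genes at that length. The search allowed no mismatch and did not cover the genome outside transcripts.

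The upstream sequences of expressed and unexpressed copies were searched for matches to the metal response element. Among the members, RefSeq (GRCh38.p14) gave the bases before the transcript start for MT2A, MT1X and MT1H. Capitals mark matches to the core of the metal response element, spelled TGCACNC or TGCGCNC, on either strand. The first MT2A stretch runs from 160 to 131 bases and the second from 65 to 36 bases before the start, MT1X from 250 to 47 bases, and MT1H from 250 bases to 1 base. All are written in the direction of the gene, on the plus strand. The RefSeq start of MT2A lies inside the gene as GENCODE 29 annotates it: all 250 bases before it fall in a GENCODE exon, and so in the length used for its FPKM, against 46 of the 250 for MT1X and 0 for MT1H.
MT2A, chr16:56608424-56608453: agccgggTGCGCCCggcccagTGCGCGCgg
MT2A, chr16:56608519-56608548: ggcggggctttTGCACTCgtcccggctctt
MT1X, chr16:56682220-56682423: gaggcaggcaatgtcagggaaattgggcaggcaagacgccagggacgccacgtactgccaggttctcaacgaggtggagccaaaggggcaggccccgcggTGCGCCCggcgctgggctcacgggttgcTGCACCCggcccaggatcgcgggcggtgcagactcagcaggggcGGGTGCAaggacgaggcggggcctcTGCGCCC
MT1H, chr16:56669564-56669813: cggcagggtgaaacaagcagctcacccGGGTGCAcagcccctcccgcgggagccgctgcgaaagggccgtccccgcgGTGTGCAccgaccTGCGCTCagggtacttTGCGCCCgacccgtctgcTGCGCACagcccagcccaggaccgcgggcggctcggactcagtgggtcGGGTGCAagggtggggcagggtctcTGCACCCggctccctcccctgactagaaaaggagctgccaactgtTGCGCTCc
Within 250 bases before the start, MT2A held 7 matches, MT1X held 4 and MT1H held 8, none of which overlaps another. Of 35097 upstream sequences of the same length in the RefSeq table, 24.8% held at least 1 match and 1.58% held at least 3. MT1H thus had the most matches of the 3 but no reads. MT1B and MT4, genes of the same cluster that are not members, held 3 matches each and had 0 and 1 counts. A match is a string of letters, and whether MTF1 binds there was not measured.

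**Figure D1:**
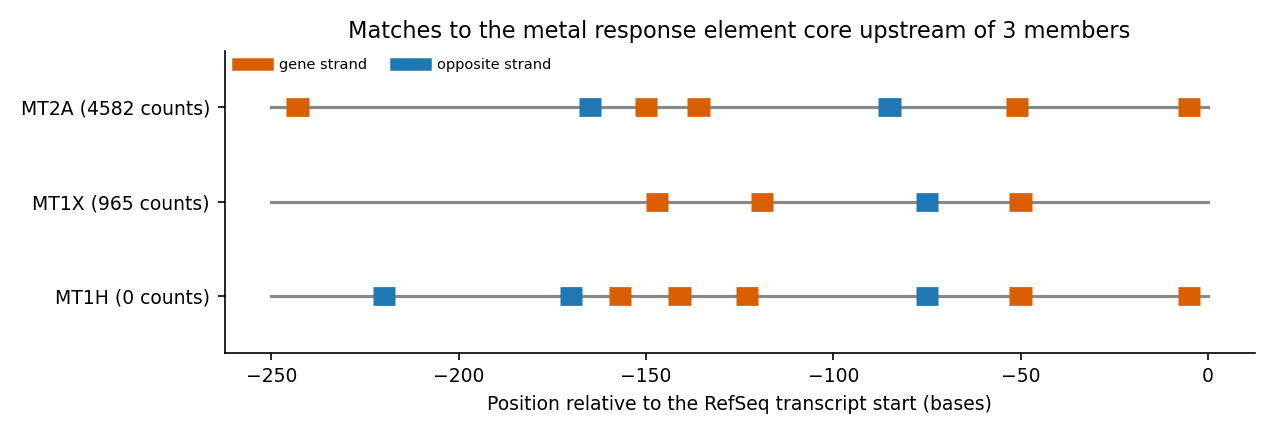
Matches to the metal response element core (TGCACNC or TGCGCNC) in the 250 bases before the RefSeq transcript start of MT2A, MT1X and MT1H, with the total counts of each gene in 9 libraries beside its name. Boxes are matches on the strand of the gene or on the opposite strand. MT1H has 8 matches and 0 counts, and MT2A has 7 matches and 4582 counts.

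On chromosome 16 the table lists 16 metallothionein genes and pseudogenes in a stretch of 119.1 kb (56565049 to 56684196, GRCh38). MT2A had 4582 counts over the 9 libraries, MT1F 1086 and MT1X 965. No other gene of the stretch exceeded 5: MT3 had 5 counts, MT1M 4, MT1L 2, and MT1E and MT4 had 1 each. The remaining 8, among them the members MT1A, MT1G and MT1H, had 0 counts in every library. A count of 0 allows up to 3 counts in a library, or 0.143 to 0.206 CPM, which covers counting error only. The 3 expressed genes are not neighbours: MT2A follows MT4 and MT3, MT1X ends the stretch, and copies at or near 0 counts lie between the expressed ones. All 3 are protein-coding genes on the plus strand: MT2A (ENSG00000125148) spans 56608199 to 56609497, MT1F (ENSG00000198417) 56657694 to 56660698 and MT1X (ENSG00000187193) 56682424 to 56684196. The few MT3 reads came from scramble replicates 2 and 3 (1 and 2 counts) and sh78 replicate 3 (2 counts), those of MT1M from scramble replicate 3 (1 count) and sh78 replicate 1 (3 counts), and that of MT1E from sh76 replicate 1. The 5 metallothionein genes and pseudogenes on other chromosomes had at most 7 counts.

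**Figure D2:**
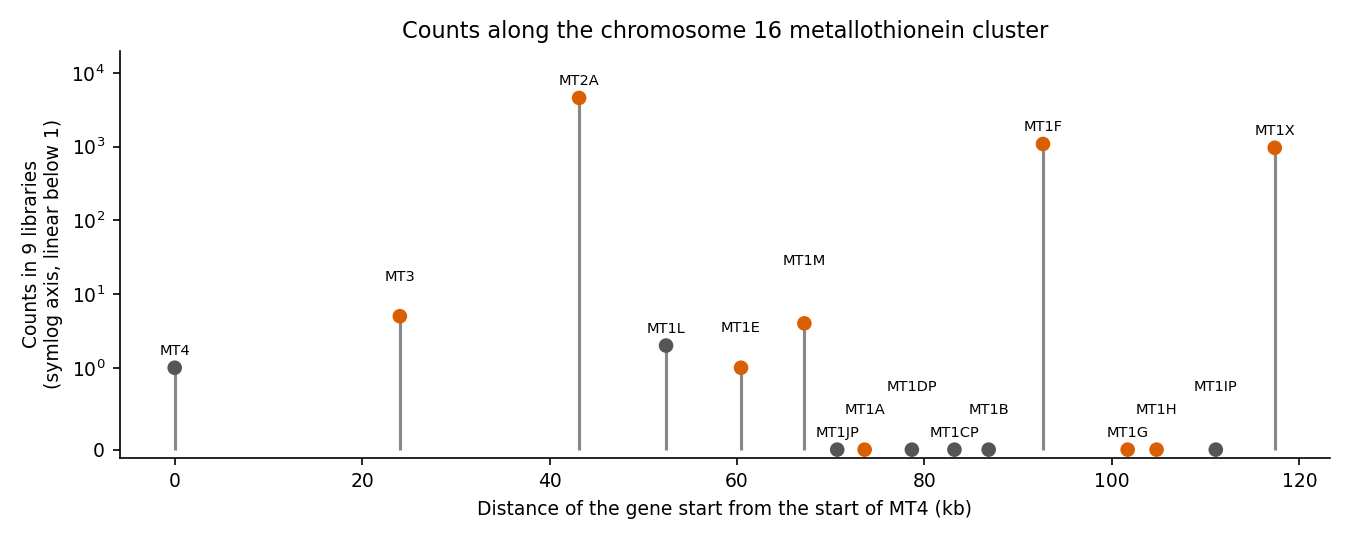
Total counts over 9 libraries for each metallothionein gene and pseudogene on chromosome 16, placed by the distance of its start from that of MT4 in kb. The vertical axis is logarithmic above 1 and linear below it, and orange points are the 9 members. MT2A, MT1F and MT1X stand at 4582, 1086 and 965 counts and all others are at 5 or fewer.

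Levels of different genes were compared per length, as the deposited FPKM (fragments relative to gene length and sequencing depth). MT2A, the major metallothionein of these cells, had 25.0 ± 5.79 FPKM (SD, n = 3) with scramble, 20.3 ± 3.58 FPKM with sh76 and 22.0 ± 4.37 FPKM with sh78. By its mean over all libraries, 22.4 FPKM, it ranked 1945 among 19951 protein-coding genes. MT1F had 4.07 ± 0.973, 2.78 ± 0.546 and 4.15 ± 0.408 FPKM, and MT1X 3.73 ± 1.11, 3.04 ± 0.645 and 3.58 ± 0.434 FPKM, in the same order of groups. In every one of the 9 libraries MT2A stood above both others, by 3.88 to 8.36 times MT1F and 5.26 to 8.08 times MT1X. The ranges of MT1F and MT1X overlapped in every group, at a ratio of MT1F to MT1X of 0.71 to 1.36, although MT1F was the higher in 8 of 9 libraries (all but sh76 replicate 2). These ratios rest on the gene lengths in the table (1299 bases for MT2A, 1889 for MT1F and 1773 for MT1X), which include all annotated exons. For MT2A and MT1X they equal the whole span of the gene, introns of the coding transcript included, and for MT1F only part of it. The ratios and the rank of MT2A thus depend on the annotation, and how far was not tested. In counts, without length, MT2A also stood highest (4582 against 1086 and 965). The MT1X length includes the 321 bases shared with AC026461.1. If reads there were left out, MT1X is too low per length, so the order of MT1F and MT1X is not settled.

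Cells with sh76 were compared with scramble cells to see whether metallothionein mRNA differed where GPX3 was reduced to a mean of 55.9 CPM from 133 CPM. MT2A had 24.0, 36.3 and 37.5 CPM in scramble replicates 1 to 3 and 21.6, 27.6 and 30.8 CPM with sh76. The sh76 library was the lower one in each same-numbered pair, but the groups overlapped, because scramble replicate 1 lay below 2 of the sh76 libraries. MT1F had 5.85, 7.86 and 9.47 CPM with scramble and 4.63, 4.80 and 6.49 CPM with sh76. Only sh76 replicate 3 reached into the scramble range. MT1X had 4.56, 6.92 and 8.44 CPM with scramble and 4.13, 6.35 and 5.82 CPM with sh76, again lower in each pair. Log2 fold changes, with sh76 over scramble, were -0.29 for MT2A (SE 0.20, 95% interval -0.72 to 0.15, edgeR adjusted p 0.501), -0.54 for MT1F (SE 0.20, -0.96 to -0.12, edgeR adjusted p 0.162) and -0.29 for MT1X (SE 0.22, -0.76 to 0.19, edgeR adjusted p 0.563). None of the 3 genes was therefore called (0 of 3), where 3.58% of the 17023 genes tested were. Unadjusted edgeR p-values under 0.05 came from 1 of the 3 (MT1F, 0.0158) and from 2959 of the 17023 genes tested. Both DESeq2 and limma called 0 of the 3.

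The replicate numbers marked shared variation (same-numbered libraries of different groups deviated together), and a blocked fit, with a term for that number, was run beside the first. With the block, MT2A was lower in sh76 cells, at -0.29 (SE 0.08, 95% interval -0.44 to -0.13, edgeR adjusted p 0.00688). MT1F was lower as well, by -0.54 (SE 0.15, -0.85 to -0.23, edgeR adjusted p 0.00818), and MT1X was not called (-0.28, edgeR adjusted p 0.216). This fit called 20.4% of all genes in the same comparison. For MT2A and MT1F the sizes are those found without the block, and the errors are smaller. Within pairs, the log2 ratio of sh76 to scramble was -0.15, -0.40 and -0.28 for MT2A and -0.34, -0.71 and -0.55 for MT1F. When each library was left out in turn, the blocked MT2A call was lost without scramble replicate 3 (edgeR adjusted p 0.118) and without sh76 replicate 2 (0.167). The blocked MT1F call was lost without scramble replicate 2 (0.0839), scramble replicate 3 (0.121) or sh76 replicate 2 (0.0692). The last is the library with the highest fibroblast marker sum, whose part in these values was not tested.

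**Figure D3:**
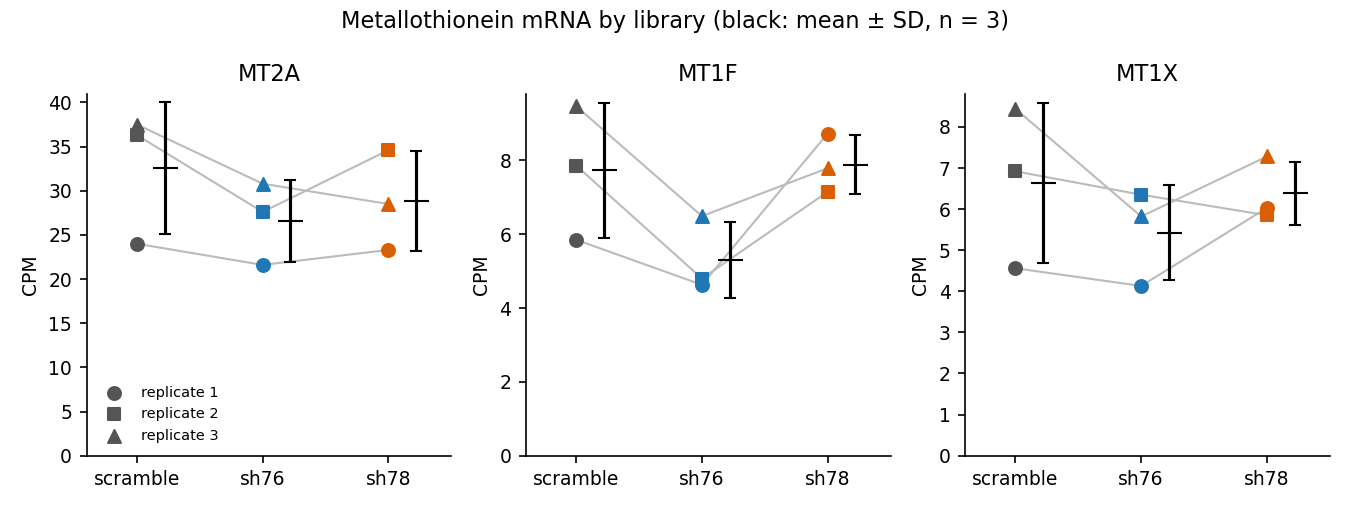
CPM of MT2A, MT1F and MT1X in each library, by group, with symbols for the replicate number and grey lines joining libraries of the same number; black marks are means ± SD over 3 libraries. The sh76 library lies below its scramble partner for all 3 genes in every pair, while circles (replicate 1) are the lowest MT2A points in each group.

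With sh78, where GPX3 was lower still, no metallothionein was called. MT2A had 23.3, 34.6 and 28.5 CPM with sh78, MT1F 8.73, 7.15 and 7.79 CPM, and MT1X 6.03, 5.85 and 7.28 CPM. All 3 genes overlapped with scramble over most of their range. The log2 fold changes, sh78 over scramble, were -0.19 for MT2A (95% interval -0.62 to 0.25, edgeR adjusted p 0.708), 0.03 for MT1F (-0.39 to 0.45, edgeR adjusted p 0.962) and -0.06 for MT1X (-0.54 to 0.42, edgeR adjusted p 0.929). Of the 3 genes edgeR called 0, against 4.41% of all genes, and DESeq2 and limma called 0 as well. An unadjusted edgeR p under 0.05 was found for 0 of the 3 and for 2983 of all 17023 genes. Log2 differences of up to 0.62 lower for MT2A thus lie within its interval. With the block again 0 of 3 were called, where 19.9% of all genes were. MT2A then stood at -0.17 (95% interval -0.34 to -0.01, edgeR adjusted p 0.126), and leaving out sh78 replicate 2 brought it under the threshold (0.0433). In pairs MT2A was lower with sh78 each time, by log2 ratios of -0.04, -0.07 and -0.40, whereas MT1F was higher in replicate 1 (0.58) and lower in replicates 2 and 3 (-0.14 and -0.28). Both hairpins were set against the same scramble libraries, so these comparisons are not independent of each other.

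Between the hairpins MT1F had the largest difference of the 3 genes. Its sh78 libraries had 7.15 to 8.73 CPM and its sh76 libraries 4.63 to 6.49 CPM. How often other genes separate in this way was not counted, so no weight is put on the separation. The log2 fold change of sh78 over sh76 was 0.57 (SE 0.20, 95% interval 0.15 to 0.99), but edgeR did not call it (adjusted p 0.144, unadjusted 0.0118). MT2A had 0.10 (-0.34 to 0.54, edgeR adjusted p 0.868) and MT1X 0.22 (-0.26 to 0.71, edgeR adjusted p 0.704). In this comparison 3.70% of all genes were called and 0 of the 3 metallothioneins, with 0 called by DESeq2 or limma. An unadjusted edgeR p under 0.05 was found for 1 of the 3 (MT1F) and for 2768 of all 17023 genes. With the block, MT1F was higher with sh78 (0.59, SE 0.15, edgeR adjusted p 0.00447), where 18.3% of all genes were called, and MT2A and MT1X were not (edgeR adjusted p 0.382 and 0.308). The 3 pairs gave MT1F log2 ratios of 0.92, 0.58 and 0.26. The blocked call was lost without sh78 replicate 1, the highest MT1F library of that group (0.37, edgeR adjusted p 0.176), and held in the other 8 fits that left out a library. Whether MT1F differs from MT2A in its response was not tested.

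**Figure D4:**
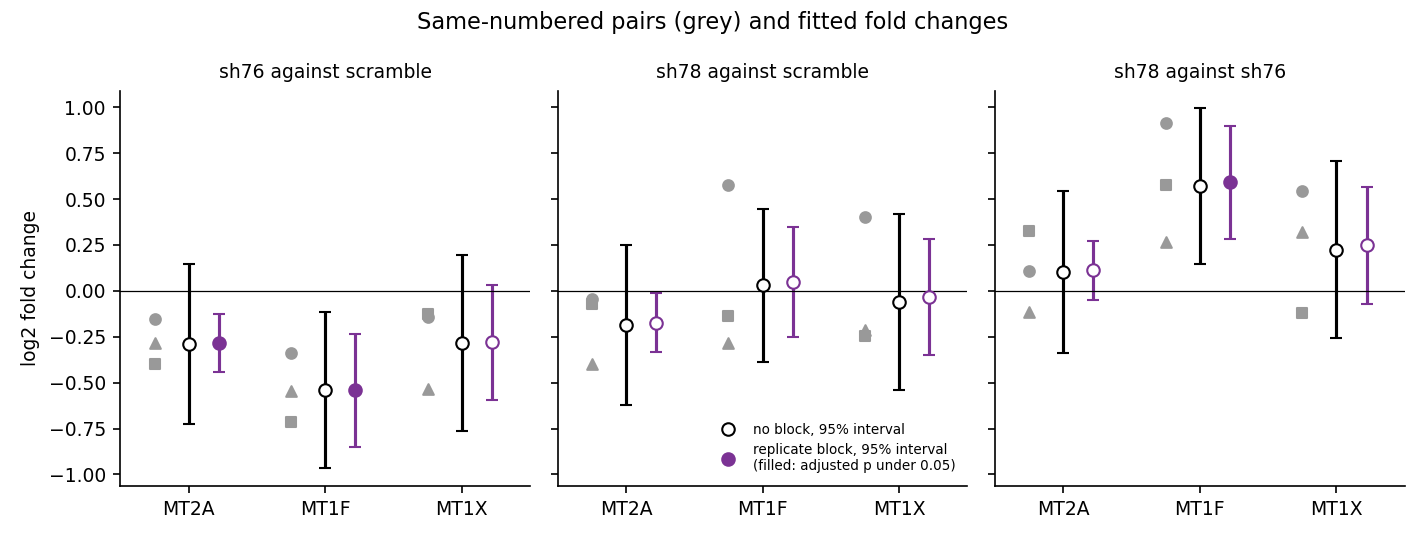
Log2 fold changes of MT2A, MT1F and MT1X in the 3 comparisons. Grey symbols are same-numbered pairs (circle, square and triangle for replicates 1, 2 and 3), black open points are edgeR estimates without the block and purple points those with it, with 95% intervals; filled purple points have an adjusted p under 0.05. The filled points are MT2A and MT1F for sh76 against scramble and MT1F for sh78 against sh76.

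Within every group MT2A was lowest in the library numbered 1: 24.0 CPM against 36.3 and 37.5 with scramble, 21.6 against 27.6 and 30.8 with sh76, and 23.3 against 34.6 and 28.5 with sh78. A test of the replicate number in the blocked fit, added after this was seen, called MT2A (edgeR adjusted p 2.91e-06) and MT1X (edgeR adjusted p 0.0246) but not MT1F (edgeR adjusted p 0.178), and it called 28.8% of all genes. The 3 libraries numbered 1 spanned 21.6 to 24.0 CPM of MT2A and the other 6 spanned 27.6 to 37.5 CPM, without overlap and whatever the hairpin. This split was picked after the values were seen. The share of all genes that separate in this way was not counted, so no weight is put on it. MT1F did not share the pattern with sh78, where replicate 1 was the highest library. What the numbers stand for is not stated in the labels.

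The shares of the members in the family total were also compared. MT2A made up 69.4% ± 1.79 (SD, n = 3) of the metallothionein counts with scramble, 71.2% ± 0.217 with sh76 and 66.3% ± 5.95 with sh78. MT1F made up 16.5% ± 0.959, 14.2% ± 1.59 and 18.6% ± 3.96, and MT1X 14.0% ± 1.04, 14.5% ± 1.64 and 14.9% ± 2.32. The MT1F share was highest in sh78 replicate 1, where it held 162 of 709 counts, or 22.8% (95% exact Clopper-Pearson interval 19.8% to 26.1%, counting error only). In the other 8 libraries its share ran from 12.4% to 17.9%. The summed level of all 9 genes was 34.4, 51.2 and 55.6 CPM with scramble, 30.4, 38.7 and 43.1 CPM with sh76, and 38.2, 47.6 and 43.7 CPM with sh78. The sh76 mean was 0.795 times that of scramble, and the groups overlapped.

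Genes that sense and move zinc set the free zinc to which metallothioneins respond. MTF1, the zinc sensor, had 42.6, 36.1 and 37.5 CPM with scramble, 46.6, 42.4 and 48.8 CPM with sh76 and 40.7, 40.3 and 41.5 CPM with sh78. Its log2 fold change with sh76 was 0.25 (SE 0.09, edgeR adjusted p 0.145), and the block called it (edgeR adjusted p 0.00406); with sh78 it was 0.08 (edgeR adjusted p 0.728). SLC30A1, the zinc exporter of the plasma membrane and a textbook MTF1 target, had a mean of 65.3, 66.1 and 65.1 CPM with scramble, sh76 and sh78, with log2 fold changes of 0.02 and -0.01 (SE 0.15 each, edgeR adjusted p 0.970 and 0.991). Of 25 zinc-handling genes 19 were tested, and edgeR called 0 with either hairpin, with median log2 fold changes of -0.03 for sh76 and -0.05 for sh78 against 0.01 over all genes. With the block, 2 (MTF1 and SLC39A6) were called higher and 2 lower with sh76, and 3 higher and 2 lower with sh78, where the block called 20.4% and 19.9% of all genes; 4 and 5 of 19 are near those shares. SLC30A9 was in the lower group of both (log2 fold changes -0.24 and -0.16). SLC30A6 and SLC30A7, zinc transporters of the secretory pathway, were in the higher group with sh78 (0.23 each).

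Of 11 copper-handling genes 9 were tested. COX17, which carries copper to cytochrome c oxidase, fell with sh78 from 35.9, 41.5 and 42.8 CPM to 27.5, 33.4 and 27.0 CPM (log2 fold change -0.45, SE 0.11, edgeR adjusted p 0.0319). It was the only one called with sh78, and edgeR called 0 with sh76, against 4.41% and 3.58% of all genes. The list medians were -0.16 for sh76 and -0.07 for sh78 against 0.01 over all genes, with 8 of 9 log2 fold changes below 0 for each hairpin. The block called 4 lower with sh76 (SLC31A1, the copper importer, with ATP7B, CCS and COX17) and 3 lower with sh78, against 20.4% and 19.9% of all genes. Neither list was tested as a list.

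A set of 9 oxidative stress genes known as targets of the transcription factor NRF2 was examined because metallothioneins are induced by oxidants too. With sh78 edgeR called 3 lower and 0 higher, against 4.41% of all genes called in either direction. TXNRD1, thioredoxin reductase, fell by 0.54 on the log2 scale (edgeR adjusted p 0.00162), SLC7A11, the cystine importer, by 0.83 (edgeR adjusted p 0.00437) and NQO1, a quinone reductase, by 0.40 (edgeR adjusted p 0.0155). All 9 had log2 fold changes below 0, with a median of -0.40 against 0.01 over all genes. With sh76 only SLC7A11 was called, which fell by 0.67 (edgeR adjusted p 0.0177, against 3.58% of all genes called), and the list median was -0.01. In the direct comparison TXNRD1 and NQO1 were lower with sh78 than with sh76 (-0.35 and -0.59, edgeR adjusted p 0.0281 and 0.00169). With the block, which called 20.4% of all genes, 2 were called higher and 2 lower with sh76. NQO1 and GCLC, an enzyme of glutathione synthesis, were higher than with scramble (0.19 and 0.27). TXNRD1 and SLC7A11 were lower (-0.19 and -0.65). For sh78 the block called 0 higher and 4 lower, against 19.9% of all genes. The list holds genes picked as NRF2 targets from textbook knowledge, and NRF2 activity was not measured.

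The protein-coding genes within 500 kb of the cluster were examined as its surroundings. Of 12 such genes 10 were tested, edgeR called 0 with sh76 and 2 with sh78 (against 3.58% and 4.41% of all genes), and the medians were -0.05 and -0.08. HERPUD1, a gene of endoplasmic reticulum protein degradation, fell with sh78 by 0.66 (38.6 to 45.5 CPM with scramble, 25.7 to 26.7 CPM with sh78, edgeR adjusted p 0.00158), and FAM192A fell by 0.38 (edgeR adjusted p 0.0190). Neither was called with sh76 (edgeR adjusted p 0.105 and 0.603), but HERPUD1 was with the block (-0.30, edgeR adjusted p 0.00133). None of the 10 neighbours (0) was called for the replicate number, the term that called MT2A, MT1X and 28.8% of all genes.

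**Figure D5:**
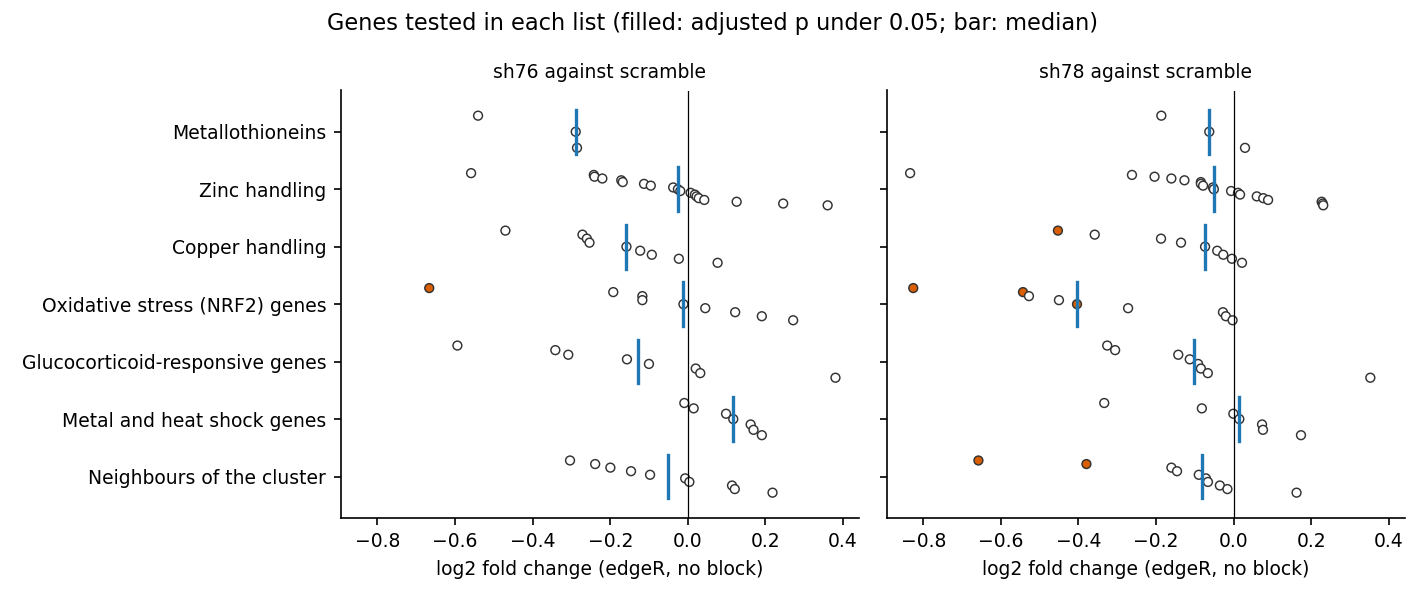
Log2 fold changes of the tested genes of each list with sh76 and with sh78 against scramble (edgeR without the block); each point is a gene, filled where its adjusted p was under 0.05, and the bar is the list median. The 3 metallothioneins lie below 0 with sh76 and around 0 with sh78, and none is filled.

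The genes whose profile over the 9 libraries was most like that of MT2A were CRYL1, ADAMTSL3, SEMA4F, ARL2 and FAM167A. Likeness was the root mean square difference of log2(CPM + 0.5), each gene centred on its own mean, and it ran from 0.08 to 0.10 for these 5 against a median of 0.31 over 13706 protein-coding genes. CRYL1 had 1.86, 3.11 and 3.33 CPM with scramble, 1.67, 1.99 and 2.20 CPM with sh76 and 1.67, 2.61 and 2.40 CPM with sh78. Its replicate 1 was low in each group as for MT2A, which follows from picking it by likeness to MT2A in the same libraries. For the summed metallothioneins the nearest were SEMA4F, TTC7B, FSD1, ADAMTSL3 and GPC4, at 0.06 to 0.09. FAM167A had at most 0.746 CPM, and its 0.123 CPM in sh76 replicate 1 lay below the level of 3 counts there (0.185 CPM). CRYL1 was low as well, so counting error is part of both profiles. These likenesses are descriptions of 9 libraries and carry no test.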

How the data were processed

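Per the labels' protocols, poly-A RNA was made into non-directional libraries. Per the submitters' processing notes, HISAT2 2.0.5, featureCounts 1.5.0-p3 and hg38 were used; their settings, and how reads that fit several genes were counted, are not given in the sources used here. The authors deposited raw counts per gene and FPKM values for 58735 genes in 9 libraries. The deposited FPKM equalled count over gene length over 1 size per library (98.09% to 103.0% of its total). All 58735 identifiers were in GENCODE 29 (GRCh38), 58724 with the same name, start and end.

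Group differences in the counts were fitted in R 4.3.3 by edgeR 4.0.16 (filterByExpr with minimum count 10 and minimum total 15, TMM, robust quasi-likelihood F tests, 1 coefficient per group over all 9 libraries, Benjamini-Hochberg over 17023 genes); the threshold for a call was an adjusted p of 0.05. Alternatives were RLE factors, DESeq2 1.42.0, no count filter, limma 3.58.1 on log2(FPKM + 1) and log2(FPKM + 0.1), the replicate block, and each library left out. The scripts were tested on simulated data. Chi-square per degree of freedom was 5.23 to 11.8 within groups, so no library repeated another. The labels number replicates 1 to 3 in every group; deviations from group means correlated at 0.14 to 0.39 in all 9 same-numbered pairs and at -0.31 to 0.06 in the 18 others, so the numbers were read as pairing the libraries.

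The 9 members, the gene lists and the rule for named genes (all members and other metallothionein genes, MTF1, SLC30A1, GPX3, list genes or neighbours called with a hairpin, and the 5 genes nearest in profile) were chosen with earlier results of these data known. Genes called only with the block, those named as examples in a list, and the heat shock genes were named after their values were seen. Coding sequences came from GENCODE 29 and were aligned with Biopython 1.88. All per-sample columns were used.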

Additional observations from a re-analysis of the deposited data

How the results depend on the processing

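The number of metallothioneins called, 0 in each comparison, was the same under RLE factors, DESeq2, no count filter, both limma fits and every fit that left out a library (0 to 0). With the replicate block it was 2 for sh76 against scramble and 1 for sh78 against sh76, and 0 for sh78 against scramble. Over all genes, dropping the count filter raised the calls from 610 to 1149 for sh76, from 750 to 1212 for sh78 and from 629 to 1125 between hairpins. The block raised them to 3467, 3388 and 3117. Leaving out 1 library gave 237 to 655, 418 to 810 and 273 to 780, lowest without sh76 replicate 2, scramble replicate 2 and sh76 replicate 2. The cause of these differences was not tested. With sh76 the log2 fold changes of MT2A, MT1F and MT1X stayed below 0 in all 15 alternatives (-0.47 to -0.16, -0.72 to -0.37 and -0.49 to -0.08), and the lowest adjusted p was 0.00688, 0.00818 and 0.216. With sh78, MT1F changed sign in 2 of 15 (-0.13 to 0.20) and MT1X in 1 (-0.27 to 0.15), none of them called. MT1F for sh78 over sh76 ran from 0.45 to 0.75. Leaving out a library under the block was added after the data were seen. With MT1F and MT1X at 67 to 165 counts per library, counting error is a sizeable part of their spread; the 6 unexpressed members allow no comparison at this depth.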

Other observations

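Of the heat shock genes, which metals also induce, HSPA1B, HSPA1A, DNAJB1 and BAG3 were highest in the library numbered 1 of each group, where MT2A was lowest; these genes were singled out after their values were seen. BAG3 had 76.0, 85.5 and 78.1 CPM in those 3 libraries and 57.4 to 74.0 CPM in the other 6. HSPH1, which also differed by replicate number (edgeR adjusted p 9.08e-16), did not follow: it was lowest in replicate 3 of each group (51.2 to 56.8 CPM), and with sh78 replicate 2 (98.8 CPM) exceeded replicate 1 (95.7 CPM). HSPA1B, an inducible HSP70 gene, had 88.8, 36.6 and 29.7 CPM in scramble replicates 1 to 3, 103, 35.2 and 35.8 CPM with sh76, and 88.6, 33.8 and 32.9 CPM with sh78, with an edgeR adjusted p 2.08e-24 for the replicate number. HSPA1A had 108, 134 and 88.9 CPM in the 3 libraries numbered 1 and 24.8 to 63.1 CPM in the other 6, and DNAJB1, an HSP40 cochaperone, had 131 to 146 CPM against 78.5 to 93.2 CPM. HSPA1A and HSPA1B are near-identical copies, so reads could be split between them. HSPB1, the small heat shock protein HSP27, went with MT2A instead: 530, 641 and 638 CPM in the libraries numbered 1 and 747 to 840 CPM in the other 6. The share of all genes that separate the libraries numbered 1 from the others was not counted. In all, 6 of the 7 heat shock genes tested differed by replicate number, against 28.8% of all genes. With either hairpin edgeR called 0 of the 7 without the block, and the medians were 0.12 for sh76 and 0.02 for sh78 against 0.01 over all genes. With the block, which called 20.4% of all genes for sh76 and 19.9% for sh78, 2 were higher with sh76, and 1 (HSPB1) was higher and 1 (HSPA1A) lower with sh78. Neither the medium, the handling nor the day of these cultures is given by number in the labels, so no cause was tested.

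Among 9 glucocorticoid-responsive genes 8 were tested, and edgeR called 0 with either hairpin without the block. FKBP5, a chaperone that glucocorticoids induce, had mean levels of 27.6, 35.9 and 35.3 CPM with scramble, sh76 and sh78 and was higher with both hairpins under the block (edgeR adjusted p 0.000129 and 0.000257), whereas TSC22D3, another such gene, was lower with both (0.000751 and 0.00127, means of 32.4, 25.5 and 25.8 CPM). Members of this list thus moved in both directions. The block called 20.4% and 19.9% of all genes in these comparisons. By replicate number 7 of the 8 differed, against 28.8% of all genes.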
